A study of Mus musculus with 13 samples.

Results

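Neutrophils carry their enzymes and antimicrobial proteins in granules, and 10 genes of that programme were followed in single cells of mouse thymus and spleen. The genes were taken by symbol from the deposited gene lists, where each symbol was held once among 57010 genes. They comprised Mpo and Elane (early genes), Ltf, Camp, Ngp, Lcn2 and Mmp8 (late genes), S100a8 and S100a9 (cytosolic genes) and Lyz2. Cells had been barcoded by split-pool rounds with the Parse WT kit (128624 cells, 20 samples, 9 sublibraries) or with the Parse Mini kit (20085 cells, 4 samples, 2 sublibraries). In Parse WT, 4 samples were lobes of thymi from a pair of young female C57BL/6N mice, cells of which had also been run on a 10x library that was not used here. The 4 Parse Mini samples were thymocytes of another pair of young female C57BL/6N mice, each thymus having been split into technical replicates, so that n = 4 covers a pair of animals in either kit. The remaining 16 samples of Parse WT were not thymic. The labels give spleen beside thymus, young and adult mice, and control and chronic stress for the library as a whole, without the group of each sample. They are therefore named as in the cell table (CVS_C, CVS_S and YD_C with a number) and given as a range and a median. No groups were compared by a test: the lobes are technical replicates of a pair of mice per kit, and the other samples have no group of their own.

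Granule proteins are made in sequence while a neutrophil matures. Promyelocytes fill the azurophil granules with myeloperoxidase and serine proteases, and myelocytes and metamyelocytes later fill the specific and gelatinase granules with lactoferrin, cathelicidin, lipocalin and metalloproteinases. Transcription of these genes is largely over when the cell leaves the marrow, so that their mRNA marks the stage at which a cell was caught, and in the mouse the spleen also holds granulocyte precursors.

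The genes lie on 5 chromosomes (mm10). Mpo (chr11:87793581-87804413, plus strand) encodes myeloperoxidase, and an annotated antisense gene, Gm11505, overlaps it. Elane (chr10:79886247-79888215, plus strand) encodes neutrophil elastase. Of the late genes, Ltf (chr9:111019271-111042767, plus strand) encodes lactoferrin, Ngp (chr9:110419747-110423012, plus strand) neutrophilic granule protein, Camp (chr9:109847379-109849617, minus strand) the cathelicidin precursor and Mmp8 (chr9:7558456-7568485, plus strand) neutrophil collagenase. The last of them, Lcn2 (chr2:32384633-32388252, minus strand), encodes the iron-carrier-binding lipocalin. S100a8 (chr3:90668978-90670035, plus strand) and S100a9 (chr3:90692632-90695721, minus strand) encode the subunits of calprotectin, and Lyz2 (chr10:117277331-117282321, minus strand) encodes the lysozyme of neutrophils, monocytes and macrophages. Unspliced transcripts were found in the thymic samples of Parse WT by the study, but whether the deposited counts include them could not be read from the files. Levels between genes are therefore given per exonic and per whole-gene length. Lyz2 shares 15.4% of its 50-base exonic words with its neighbour Lyz1, which held 7 UMIs in the neutrophil-like cells of the other samples where Lyz2 held 7248.

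The 250 bases before the RefSeq start (GRCm38.p6) are printed for the early genes and for 3 late genes, to show genes with and without the word described next. The letters TTGCNNAA, the core of C/EBP-type sites, were searched on both strands and are in capitals. They were found in 4 of the 5 late genes (Ltf, Ngp, Lcn2, Mmp8), in S100a9, in neither early gene and in 9.56% of all 32851 promoters of this length. The 5 windows lie at chr11:87793534-87793783 (Mpo), chr10:79886062-79886311 (Elane), chr9:111019042-111019291 (Ltf), chr9:110419558-110419807 (Ngp) and chr9:109849457-109849706 (Camp, minus strand).
Mpo: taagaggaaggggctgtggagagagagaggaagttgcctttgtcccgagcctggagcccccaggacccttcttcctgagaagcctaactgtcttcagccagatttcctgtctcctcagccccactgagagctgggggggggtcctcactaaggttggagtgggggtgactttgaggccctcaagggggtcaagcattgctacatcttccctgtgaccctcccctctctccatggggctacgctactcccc
Elane: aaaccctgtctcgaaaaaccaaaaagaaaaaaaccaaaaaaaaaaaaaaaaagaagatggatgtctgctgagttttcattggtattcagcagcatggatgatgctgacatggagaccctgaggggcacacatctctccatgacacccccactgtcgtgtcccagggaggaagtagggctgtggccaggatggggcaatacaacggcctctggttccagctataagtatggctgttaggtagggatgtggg
Ltf: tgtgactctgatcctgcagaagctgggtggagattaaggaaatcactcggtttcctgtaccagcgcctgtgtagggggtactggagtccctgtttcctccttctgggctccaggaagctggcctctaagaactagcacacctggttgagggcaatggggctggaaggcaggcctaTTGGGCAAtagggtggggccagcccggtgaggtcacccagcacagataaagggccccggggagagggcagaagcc
Ngp: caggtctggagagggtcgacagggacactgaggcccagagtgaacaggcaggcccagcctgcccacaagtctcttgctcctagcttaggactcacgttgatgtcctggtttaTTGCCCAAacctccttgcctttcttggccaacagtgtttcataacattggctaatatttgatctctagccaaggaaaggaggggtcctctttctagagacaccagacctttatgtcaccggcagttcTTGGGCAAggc
Camp: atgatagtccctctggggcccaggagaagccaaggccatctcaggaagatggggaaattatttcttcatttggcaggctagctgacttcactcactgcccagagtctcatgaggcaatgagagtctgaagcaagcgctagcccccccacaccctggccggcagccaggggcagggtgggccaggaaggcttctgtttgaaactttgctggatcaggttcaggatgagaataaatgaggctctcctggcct

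The match of Ltf began 75 bases before the start and those of Ngp 138 and 11 bases before it. Outside the printed windows, Lcn2 had its match at 216 bases, Mmp8 at 19 and S100a9 at 236. GAGGAA, a core of PU.1-type sites, was present in 6 of the 10 genes (Mpo, Elane, Ltf, Lcn2, Mmp8 and S100a8) and in 23.3% of promoters. TGTGGT, a core of RUNX-type sites, was present in S100a9 and Lyz2 and in 14% of promoters. The RefSeq starts are not the gene starts of the annotation given above, and the printed windows all reach into the annotated genes. The window of Lcn2 (chr2:32387740-32387989) lies wholly inside its gene. A match is a description of the letters and was not tested as a binding site.

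Quality limits of 500 to 25000 UMIs and at most 15% mitochondrial UMIs kept 140038 of 148709 cells, which were grouped without the 10 genes into 29 clusters. In the thymic samples of Parse WT 81.9% of cells were double-positive-thymocyte-like, in those of Parse Mini 83.6% and in the other samples 2.78%, where 51.8% were B-like. Of the 2259 double-positive-thymocyte-like cells of the other samples, 1867 lay in a cluster led by Il31ra. That cluster had a median of 1037 UMIs and no listed thymocyte marker among its leading genes, so the name is weak there. The sample CVS_S_5 stood apart, since it held 207 of 208 cells of a myeloid state led by Gpc3 and Nos2. Without their sublibrary, 19867 of 103602 Parse WT barcodes and 1360 of 18725 Parse Mini barcodes occurred in more than 1 sublibrary, 3012 occurred in both kits, and none occurred more than once within a sublibrary.

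One cluster of 3415 cells was neutrophil-like, with all 21 markers of a list that held none of the 10 genes raised in it, and a median of 2374 UMIs per cell. It held 36 thymic cells of Parse WT, 7 of Parse Mini and 3372 cells of the other samples. Thymic samples 1 to 4 of Parse WT held 9, 10, 5 and 12 such cells of 3964, 11662, 9557 and 14186, or 0.227% (exact 95% interval 0.104% to 0.431%), 0.0857% (0.0411% to 0.158%), 0.0523% (0.017% to 0.122%) and 0.0846% (0.0437% to 0.148%). The mean was 0.112% ± 0.078 (SD, n = 4 lobes), where lobes of a mouse are technical replicates. Sample 1 was the highest, and without it the mean was 0.0742%. The Parse Mini samples T-1-A, T-1-B, T-2-A and T-2-B held 1, 1, 3 and 2 such cells, a mean of 0.0361% ± 0.0186 (SD, n = 4). In the other samples the share ran from 1.4% (CVS_S_1) over a median of 3.3% to 10.4% (CVS_C_4). No thymic sample reached the lowest of the other samples.

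Some cells of the cluster also held UMIs of lymphoid genes. Of the 36 thymic cells of Parse WT, 28 held a UMI of a B marker or of Cd3e, Cd3g, Trac, Themis or Rag1 (6, 10, 3 and 9 in samples 1 to 4), as did 6 of the 7 cells of Parse Mini. In sub-clusters made without the 10 genes, 21 of the 36 and 5 of the 7 fell into a group led by the thymocyte genes Arpp21 and Rag1, with a median of 8053 UMIs. In the other samples 1381 of 3372 cells held none of these UMIs, and a sub-cluster of 820 cells was led by genes of B cells. Further sub-clusters there were led by Pou2af2 (357 cells, 355 with such a UMI), by genes that include Ncr1 and Gzma (233 cells) and by Stab2 (65 cells). Cells of mixed origin, such as doublets, were not called by a doublet caller, and their part in the levels was not tested. Without these cells the thymic share was 0.0294% in Parse WT and 0.00584% in Parse Mini.

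Early genes were rare in thymic neutrophil-like cells. Levels are given in CPM, the UMIs of a gene per 1000000 UMIs outside ribosomal RNA, pooled over the cells of a sample, and intervals are exact 95% intervals for counting error only. Mpo held 0, 0, 0 and 10 UMIs in thymic samples 1 to 4, all 10 in a single cell of sample 4. Elane held 0, 0, 1 and 1 UMIs. Over the 36 cells Mpo came to 56.7 CPM (27.2 to 104) and both early genes together to 68 CPM (35.1 to 119). Without sample 4 the early genes were at 7.84 CPM, and in the 8 thymic cells free of B and T marker UMIs, which include the cell with 10 Mpo UMIs, they were at 1079 CPM. In the 7 Parse Mini cells no early UMI was found, which allows up to 83.7 CPM. The thymic depth therefore could not separate these levels from those of the other samples.

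Among the other samples, Mpo ran from 0 (YD_C_1) over a median of 54.9 to 179 CPM (CVS_S_5), and 172 CPM was the highest without CVS_S_5. In the 14 other samples with at least 20 cells free of B and T marker UMIs, Mpo ran from 0 over 74.9 to 455 CPM (CVS_S_2) in those cells. Elane ran from 0 over 3.48 to 41.9 CPM (CVS_S_6). Early UMIs made up 0% to 3.06% of the early and late UMIs of a sample, with a median of 0.711%. Over all 3372 cells, a UMI of Mpo was found in 2.61% of cells and one of Elane in 1.25%.

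Late genes were abundant in all 4 thymic samples of Parse WT. They held 479, 246, 184 and 286 UMIs in samples 1 to 4, or 10177, 4049, 9319 and 5851 CPM, and 6773 CPM over all 36 cells (6394 to 7168). The Parse Mini samples held 10, 2, 60 and 122 late UMIs and 5413 CPM over their 7 cells (4678 to 6231). In the other samples the late genes ran from 1963 (CVS_C_3) over a median of 6416 to 12296 CPM (CVS_S_4), and all 4 thymic samples of Parse WT lay inside that range. In cells free of B and T marker UMIs the late level was higher, at 19238 CPM in the 8 such thymic cells of Parse WT. In the 14 other samples with at least 20 such cells it ran from 2338 over 14352 to 22709 CPM. The cells free of these UMIs were also shallower, with a median of 1164 UMIs against 4714 in all 36 thymic cells. In the other samples the medians were 1351 and 2361 UMIs, and the part of depth was not tested.

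Ltf, lactoferrin, binds iron and is a classical protein of specific granules. In thymic samples 1 to 4 it stood at 5439, 1761, 2836 and 2946 CPM, and in the other samples at 1212 to 6931 CPM with a median of 4036. Ngp, a cystatin-related granule protein, stood at 3187, 1449, 3900 and 2046 CPM in the thymic samples, and at 466 to 3854 CPM with a median of 1726 in the others. Sample 3, which rested on 5 cells, was just above the highest of these 16 for Ngp, and T-2-B of Parse Mini, with 2 cells, was at 4880 CPM.

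Camp, the cathelicidin precursor, was at 659, 362, 1013 and 409 CPM in thymic samples 1 to 4, and at 24.7 to 759 CPM with a median of 186 in the other samples. All 4 thymic values exceeded that median. Lcn2 was at 637, 247, 456 and 286 CPM in the thymic samples and at 100 to 759 CPM with a median of 404 in the others. Mmp8, the collagenase, was at 255, 230, 1114 and 164 CPM in the thymic samples and at 47.3 to 560 CPM with a median of 176 in the others. Its highest other sample was CVS_S_5, without which the highest was 464 CPM. For Ltf and Lcn2 all 4 thymic values lay inside the range of the others, and for Ngp, Camp and Mmp8 sample 3 lay above it.

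The calprotectin genes, whose products fill the cytosol of neutrophils, were found in all 4 thymic samples. S100a8 was at 829, 576, 2127 and 634 CPM in thymic samples 1 to 4 and at 120 to 1170 CPM with a median of 488 in the other samples. S100a9 was at 2826, 1646, 3748 and 2107 CPM in the thymic samples and at 573 to 3789 CPM with a median of 1494 in the others. All 4 thymic samples lay above the median of the others for both genes, and sample 3 above their range for S100a8. Lyz2 was at 1147, 346, 760 and 552 CPM in the thymic samples and at 156 (CVS_S_5) to 1330 CPM (YD_C_2) with a median of 662 in the others, so that it overlapped throughout. In cells free of B and T marker UMIs these levels too were higher. S100a8, S100a9 and Lyz2 were then at 1708, 5574 and 1528 CPM in the 8 thymic cells of Parse WT. The medians over the 14 other samples with at least 20 such cells were 1158, 3902 and 1280 CPM.

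**Figure D1:**
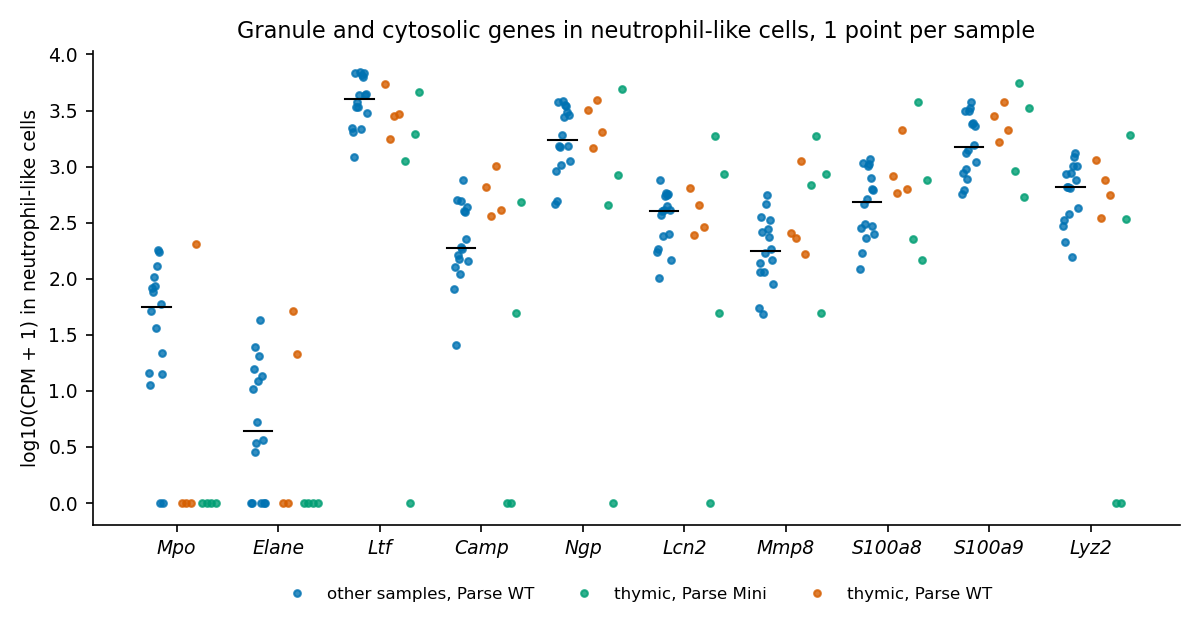
Each point is 1 sample and gives the level of a gene in its neutrophil-like cells as log10(CPM + 1), with a bar at the median of the 16 other samples; samples with few cells (5 to 12 in thymic Parse WT, 1 to 3 in Parse Mini) are drawn too. Late and cytosolic genes sit high in nearly every sample, while Mpo is at 0 in 3 of the 4 thymic samples of Parse WT and in all 4 of Parse Mini.

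Levels of different genes were compared per kilobase of exon, over all neutrophil-like cells of the other samples. S100a9 was first with 3581 CPM per kilobase, followed by Ngp with 1740, Ltf with 1201 and S100a8 with 822. Lyz2 came to 509, Camp to 345, Lcn2 to 150, Mmp8 to 98.5, Mpo to 17.3 and Elane to 7.7. Per kilobase of the whole gene, introns included, Ngp was first with 651, ahead of S100a9 with 605, S100a8 with 539 and Ltf with 176.

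To describe the genes by cell state, 8080 myeloid and related cells were sub-clustered without the 10 genes, and 4 of 18 states were described by genes that led them. A Ctsg-Prtn3 state held 221 cells from 19 samples, of which 205 lay in the monocyte-like cluster and 14 in the neutrophil-like one. Its leading genes included Mpo, the primary granule proteases Ctsg, Elane and Prtn3, and the monocyte marker F13a1. The naming rule gave this state no name. The Neil3-Fcnb state (405 cells) carried cycling genes. The Padi4-Mmp9 state (720 cells) and the Csf3r-Cxcr2 state (544 cells) carried genes of later neutrophils. These states and their number were set after the cells had been seen, and the levels in them are a description. The order in which the states are given was not tested as a course of maturation.

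Mpo was highest in the Ctsg-Prtn3 state and was lower in each of the following. It stood at 1222 CPM (1164 to 1282) in the Ctsg-Prtn3 state, at 207 CPM (182 to 234) in the Neil3-Fcnb state, at 2.64 CPM (3 UMIs) in the Padi4-Mmp9 state and at 0 in the Csf3r-Cxcr2 state, where 0 UMIs allow up to 4.58 CPM. In samples with at least 20 cells of a state, Mpo ran from 85.8 to 1588 CPM in the Ctsg-Prtn3 state (4 samples) and from 51.1 to 547 CPM in the Neil3-Fcnb state (6 samples), so that the sample ranges overlapped. Without CVS_S_5 the Neil3-Fcnb value was 122 CPM and the Padi4-Mmp9 value 0.916 CPM. Elane was at 82.8, 29.5, 0 and 1.53 CPM in these states, the last from 1 UMI, and the 0 UMIs of the Padi4-Mmp9 state allow up to 2.64 CPM. Within the Ctsg-Prtn3 state the signal was uneven: 84 of 221 cells held Mpo, the highest held 93 UMIs, and 28 cells held 20 or more.

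Ltf was low in the Ctsg-Prtn3 and Csf3r-Cxcr2 states. It stood at 43.2 CPM in the Ctsg-Prtn3 state, at 8205 CPM in the Neil3-Fcnb state, at 14046 CPM in the Padi4-Mmp9 state and at 83.9 CPM in the Csf3r-Cxcr2 state. Across samples Ltf ran from 3321 to 10484 CPM in the Neil3-Fcnb state, from 6845 to 20297 CPM in the Padi4-Mmp9 state (12 samples) and from 0 to 552 CPM in the Csf3r-Cxcr2 state (10 samples, median 6.09). In the Ctsg-Prtn3 state it ran from 0 to 182 CPM (4 samples, median 2.57), and it was at 2.81 CPM there without cells holding a B or T marker UMI. The last range lay below every sample of both middle states.

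Ngp and Camp were at similar levels in the 2 middle states. Ngp was at 34.4, 5942, 6588 and 39.7 CPM in the 4 states in that order, and Camp at 2.93, 854, 731 and 4.58 CPM. Lcn2 was at 5.86, 894, 1303 and 77.8 CPM. Without cells holding a B or T marker UMI, Ngp, Camp and Lcn2 were at 22.4, 0 and 2.81 CPM in the Ctsg-Prtn3 state.

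Mmp8 stood apart from the other late genes. It was at 33.7 CPM in the Ctsg-Prtn3 state and at 46.4 CPM in the Neil3-Fcnb state (27.6 to 93.3 over samples), where each of the other late genes was at 854 CPM or more. In the Padi4-Mmp9 state it stood at 953 CPM (155 to 1254 over samples), above every sample of the Neil3-Fcnb state. In the Csf3r-Cxcr2 state it was at 246 CPM (44.9 to 592 over samples). In the Gpc3-Nos2 state of CVS_S_5, Mmp8 was at 985 CPM while Ltf was at 1400 CPM.

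The cytosolic genes were also present in the Csf3r-Cxcr2 state. S100a9 was at 66.7, 4469, 5440 and 1569 CPM in the Ctsg-Prtn3, Neil3-Fcnb, Padi4-Mmp9 and Csf3r-Cxcr2 states, and S100a8 at 24.2, 1404, 1809 and 304 CPM. Over samples of the Csf3r-Cxcr2 state S100a9 ran from 449 to 2961 CPM, below the range of the Neil3-Fcnb state (3462 to 5933 CPM) and overlapping that of the Padi4-Mmp9 state (2405 to 8136 CPM). Lyz2 had the smallest ratio of highest to lowest level over the first 3 states, at 849, 1291 and 2185 CPM, and stood at 194 CPM in the Csf3r-Cxcr2 state.

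**Figure D2:**
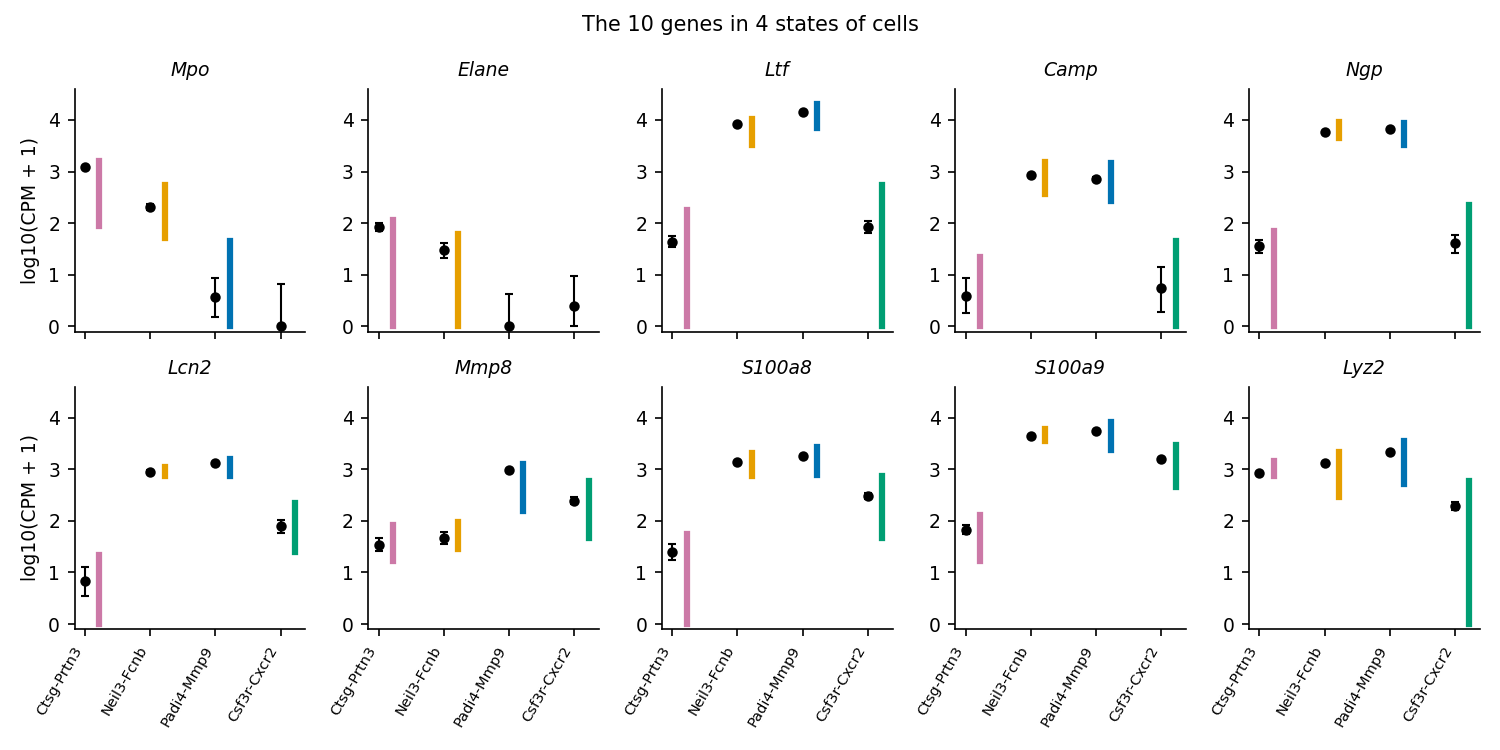
Each panel gives 1 gene in 4 states as log10(CPM + 1), with a point and exact 95% counting interval for the pooled cells and a coloured bar for the range over samples with at least 20 cells of the state. Mpo and Elane are highest in the Ctsg-Prtn3 state, Ltf, Ngp, Camp and Lcn2 in the Neil3-Fcnb and Padi4-Mmp9 states, and Mmp8 in the Padi4-Mmp9 state.

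Of the thymic neutrophil-like cells of Parse WT, 14 lay in the 3 neutrophil states. These 14 cells held 452 late UMIs, or 20689 CPM (18826 to 22688), with Mpo at 0 UMIs and Elane at 1. The 1654 cells of the other samples in those states held 83.9 CPM of Mpo, while 0 UMIs in the thymic cells allow up to 137 CPM, so that a difference in Mpo was not detectable at this depth.

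Early and late genes were found together in a small share of cells. Of the 3372 neutrophil-like cells of the other samples, 2345 held late UMIs only (69.5%), 82 held both kinds (2.43%), 15 held early UMIs only and 930 held neither. Among the 97 cells with an early UMI, 84.5% (75.8% to 91.1%) also held a late one, against 72% (70.4% to 73.5%) of all 3372 cells. The share among cells with an early UMI depended on depth. With each cell thinned to 1000 UMIs it was 66.7% (32 of 48 cells), and with each thinned to 500 UMIs 53.1% (17 of 32). Late UMIs alone were then held by 65.3% and 59.1% of all thinned cells, and both kinds by 1.13% and 0.504%. Of the 36 thymic cells of Parse WT, 28 held late UMIs only, 1 held early UMIs only, 1 held both and 6 held neither, and all 7 cells of Parse Mini held late UMIs only.

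The share of cells with a late UMI differed between the Ctsg-Prtn3 and Neil3-Fcnb states, also among cells with an early UMI. Of all cells in the Ctsg-Prtn3 state 14% held late UMIs only and 6.79% both kinds, against 84.9% and 13.6% in the Neil3-Fcnb state. Co-detection in a state is to be read beside these shares. Of 91 cells with an early UMI in the Ctsg-Prtn3 state, 16.5% (9.53% to 25.7%) held a late one, against 91.7% (81.6% to 97.2%) of 60 such cells in the Neil3-Fcnb state. With each cell thinned to 1000 UMIs the shares were 5.08% and 87.5%, and with each thinned to 500 UMIs 4.17% and 63.6%. Without CVS_S_5, which held 27 of the 60 cells, the Neil3-Fcnb share was 97% (32 of 33 cells). In the Ctsg-Prtn3 state, 27 of the 28 cells with 20 or more Mpo UMIs held no Ltf UMI. Of all 221 cells of that state, 34.4% held early UMIs only and 44.8% held neither kind. The lack of Ltf was thus not particular to the cells rich in Mpo.

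Taken by early UMIs per cell, over the cells of the neutrophil-like cluster and the Ctsg-Prtn3 state together, Ltf was at 3965 CPM in the 3444 cells without early UMIs. It was at 1785 CPM in 88 cells with 1 to 4 early UMIs, at 381 CPM in 57 cells with 5 to 19 and at 22 CPM in 33 cells with 20 or more. Ngp was at 1967, 2211, 792 and 525 CPM in these groups. Of the 33 cells in the last group 25 held no late UMI, and 2 cells of the Neil3-Fcnb state held 109 and 52 late UMIs. In the Ctsg-Prtn3 state 28 cells held 20 or more Mpo UMIs, so the last group largely restates that state. The fall of Ltf was thus not measured within the neutrophil-like cluster alone. The median depth was higher in the cells with more early UMIs, from 2385 to 10076 UMIs, and Mki67, a proliferation gene, was at 420, 1243, 1228 and 855 CPM.

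**Figure D3:**
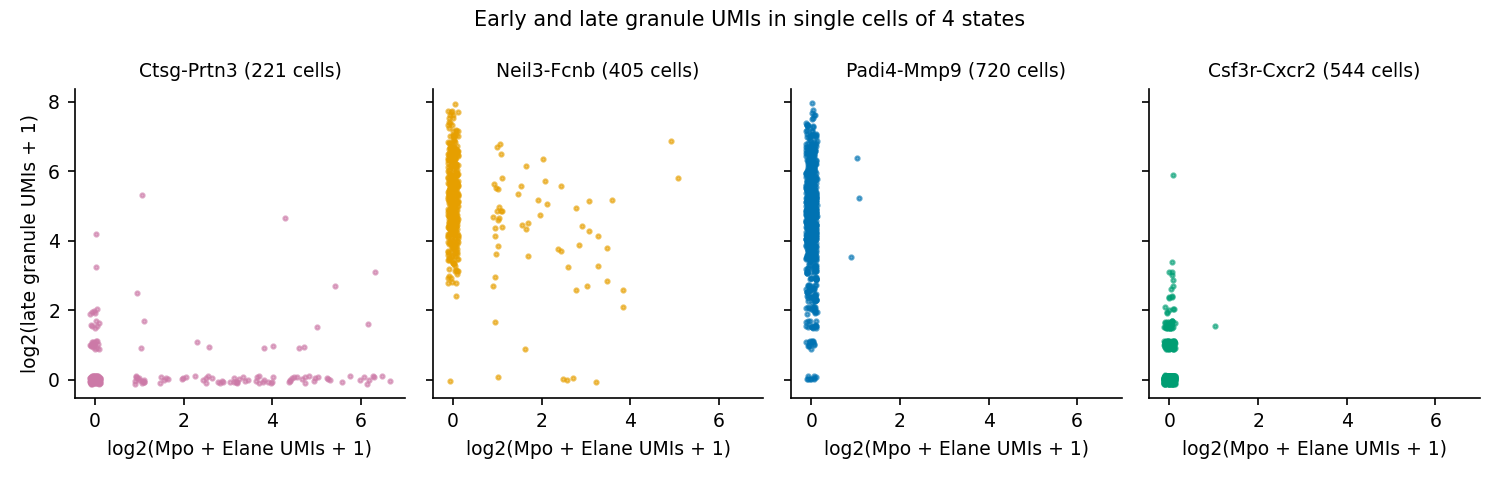
Each point is a cell, with its summed Mpo and Elane UMIs on the horizontal axis and its summed UMIs of the 5 late genes on the vertical axis, both as log2(UMIs + 1) with a small fixed-seed jitter. In the Ctsg-Prtn3 state 99 of 221 cells hold neither kind and lie at the origin, and 76 lie along the early axis; 708 of 720 Padi4-Mmp9 cells lie along the late axis, and 55 of 405 Neil3-Fcnb cells hold both kinds.

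Other genes of the granule programme were counted by the state that held their highest level among the 4. Of all 12011 genes with at least 10 UMIs there, 49.8% were highest in the Ctsg-Prtn3 state, 18.1% in the Neil3-Fcnb state, 12.5% in the Padi4-Mmp9 state and 19.6% in the Csf3r-Cxcr2 state. Of 6 further early granule genes, 5 were highest in the Ctsg-Prtn3 state, and Bpi had under 10 UMIs. Ctsg, cathepsin G, was at 119 CPM there and 6.75 in the Neil3-Fcnb state, and Prtn3, proteinase 3, was at 109 and 58.2 CPM. As both genes led the state, and as the other states too bear the names of listed genes, the place of these genes is no finding, and all other listed genes could enter the clustering. Of 14 further late granule genes, 11 were highest in the Padi4-Mmp9 state and 3 (Chil3, Fcnb and Abca13) in the Neil3-Fcnb state. Cd177, a surface partner of proteinase 3, was at 26.4, 1479, 1891 and 83.9 CPM in the order of the states, close to the pattern of Ltf. Fcnb, a ficolin of granulocytes, was at 483 CPM in the Neil3-Fcnb state and at 0 in the Csf3r-Cxcr2 state. Mmp9, gelatinase B, was at 136 CPM in the Neil3-Fcnb state, 1320 CPM in the Padi4-Mmp9 state and 784 CPM in the Csf3r-Cxcr2 state, and resembled Mmp8 in being low in the first of these.

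Of 18 genes of mature neutrophils, 10 were highest in the Csf3r-Cxcr2 state and 8 in the Padi4-Mmp9 state. Cxcr2, a chemokine receptor of circulating neutrophils, was at 5.13, 58.2 (27.4 without CVS_S_5), 259 and 1425 CPM, and Il1b, an inflammatory cytokine, was at 6.6, 5.91, 24.6 and 2214 CPM. Ly6g, the surface marker of mouse neutrophils, was at 81.8 CPM in the Padi4-Mmp9 state and at 3.05 CPM in the Csf3r-Cxcr2 state. Of 6 transcription factors, Cebpe and Gfi1 were highest in the Neil3-Fcnb state with 53.2 and 50.6 CPM. Cebpa was highest in the Ctsg-Prtn3 state with 17.6 CPM, and Cebpb, Cebpd and Spi1 were highest in the Csf3r-Cxcr2 state. Cebpe, a regulator of secondary granule genes, was at 0 in that state. All 4 cycling genes were highest in the Neil3-Fcnb state, with Mki67 at 1297, 1937, 222 and 29 CPM over the states.

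Across the 29 clusters the genes differed in how closely they kept to neutrophil-like cells. Ltf was at 4123 CPM there and at 63.8 CPM in the next cluster, a ratio of 64.6. The ratio was 57.2 for Ngp, 44.9 for Lcn2, 32.8 for S100a9, 28.6 for Camp, 25.6 for S100a8 and 4.67 for Mmp8, whose next cluster was monocyte-like with 51.5 CPM. A monocyte-like state of 279 cells, all from CVS_S_5, held 496 Mmp8 UMIs (779 CPM), where the whole monocyte-like cluster held 754. Mmp8 was at 59 and 2.13 CPM in the monocyte-like states led by Arhgef37 and by Cd300e. Lyz2 was highest in the monocyte-like cluster with 1214 CPM and came to 670 CPM in neutrophil-like cells. Mpo too was highest in the monocyte-like cluster, with 90.4 CPM, followed by an unnamed cluster led by Stab2, a gene of sinusoidal endothelium, with 63.5 CPM. In the sub-clusters of myeloid and related cells, Mpo was at 7.86 CPM (7 UMIs) in that led by Stab2. It was at 108 CPM (112 UMIs) in that led by Gata2. Elane was highest in neutrophil-like cells with 7.61 CPM and came to 5.33 CPM in the monocyte-like cluster. That cluster took in 205 of the 221 cells of the Ctsg-Prtn3 state. In the monocyte-like states led by Arhgef37 and by Cd300e (955 and 810 cells), Mpo was at only 0.944 and 0.533 CPM. Elane was at 0.472 and 0 CPM in them.

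The genes most like Ltf over the clusters, by Pearson's r of log2(CPM + 1) among 19719 genes, were Cd177 (0.922), Mmp9 (0.914), Nlrp12 (0.901), Sycp2 (0.899) and Itgb2l (0.888). Those most like Mpo were Aox1 (0.936), Ctsg (0.934), Thbs1 (0.928), Prtn3 (0.914) and Gm49499 (0.902). S100a8 was closest to Slfn4 (0.933), Nlrp12 (0.908), Retnlg (0.901), Cd177 (0.898) and Gm38575 (0.897). Lyz2 was closest to Cd300lb (0.953), Clec7a (0.947), Csf3r (0.944), Hp (0.941) and C3 (0.933). The clusters shared libraries and wells, and the values are a description.

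In the thymic samples, Mpo was also found in an unnamed cluster led by Il2ra, the interleukin 2 receptor alpha chain. It held 1257 thymic cells of Parse WT and 594 of Parse Mini. All 6 markers of a listed cell type were raised in it, but the naming rule withheld the name because Il2ra led it. The cluster was therefore not among the T-, thymocyte-, B- and NK-like cells set beside it below. Mpo was at 5.26, 6.31, 10.7 and 5.82 CPM there in thymic samples 1 to 4 of Parse WT (5, 15, 22 and 24 UMIs) and at 4.66, 1, 1.62 and 9.91 CPM in the Parse Mini samples (5, 1, 2 and 12 UMIs). T-, thymocyte-, B- and NK-like cells of the same samples held 0.216 to 0.56 CPM in Parse WT and 0 to 0.237 CPM in Parse Mini. The value in the cluster was the higher in all 8 samples, though in T-1-B it rested on 1 UMI.

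Over all thymic cells of that cluster, 86 Mpo UMIs lay in 57 of 1851 cells, or 6.13 CPM (4.9 to 7.57), and the 5 late genes together were at 2.99 CPM. The 57 cells with Mpo had a median of 11302 UMIs and the 1794 without it 8021. The receptor gene Kit was at 324 CPM in cells with Mpo and at 62.4 CPM in the others, and the progenitor gene Cd34 was at 92.7 and 6.88 CPM. Spi1, the gene of PU.1, was at 67.6 and 5.18 CPM and Csf1r at 29 and 1.63 CPM. Il2ra was at 257 and 703 CPM and Cd3e, a T cell receptor subunit, at 108 and 259 CPM. These genes were looked at after the Mpo UMIs had been seen, and the part of depth was not tested.

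**Figure D4:**
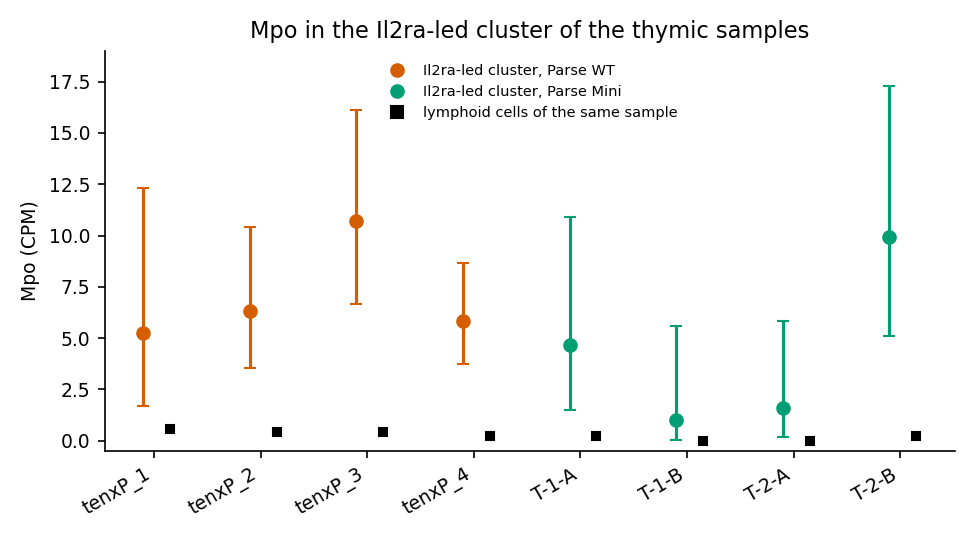
Mpo in CPM with exact 95% counting intervals in the Il2ra-led cluster of each of 8 thymic samples (tenxP_1 to tenxP_4 are thymic samples 1 to 4 of Parse WT), with squares for the lymphoid cells of the same sample. The circles lie at 1 to 10.7 CPM and the squares at 0 to 0.56 CPM.

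The share of UMIs in cells that the quality limits removed differed between Mpo and the late genes. In the other samples 24.3% of Mpo UMIs lay in 1681 cells over the UMI limit, among them a cell with 288 Mpo UMIs, and 15.5% in cells over the mitochondrial limit. For the late genes these shares were 7.18% and 1.97%. In the thymic samples of Parse WT 39.1% of Mpo UMIs and 25.7% of late UMIs lay in cells over the UMI limit. The order was the other way in Parse Mini, with 23.4% of Mpo UMIs, 11 in all, and 34.8% of late UMIs. Cells over the UMI limit were deep, with medians of 34206 UMIs in the other samples, 37430 in thymic Parse WT and 36466 in Parse Mini. The share of all UMIs in them was not computed, so none of these shares is read as an excess or a lack.

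Of all late UMIs in the other samples 81.9% lay in neutrophil-like cells and 4% in lymphoid cells. In the thymic samples of Parse WT the shares were 44% and 28.1%, and in those of Parse Mini 51.9% and 12.3%. Among thymic cells of Parse WT within the quality limits, 29 neutrophil-like and 632 lymphoid cells held a late UMI. A late UMI alone therefore did not identify a neutrophil in the thymus. Of the early genes and Lyz2 in the other samples, 2.88% of Mpo, 5.02% of Elane and 3.75% of Lyz2 UMIs lay in lymphoid cells. The late and cytosolic genes ran from 3.16% for Ltf, 3.32% for Mmp8, 4.71% for Ngp and 4.84% for Lcn2 to 9.01% for S100a8, 9.39% for S100a9 and 9.93% for Camp. The last 3 genes have exonic lengths of 694, 522 and 758 bases, the shortest of all 10, ahead of Elane with 984. Whether length bears on these shares was not tested.

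The source of late UMIs in lymphoid cells was not tested. Late genes were detected in these cells in every sample at a low level. They were at 3.49 to 7.49 CPM in the thymic samples of Parse WT (4.97 ± 1.74, SD, n = 4), at 0.357 to 1.3 CPM in those of Parse Mini (0.692 ± 0.424, SD, n = 4) and at 6.37 to 226 CPM with a median of 23.5 in the other samples. The lowest of the other samples was CVS_C_3, with a median of 7261 UMIs per lymphoid cell, and the highest CVS_S_6, with a median of 1395 UMIs and 7.23% neutrophil-like cells. By class, late genes in the other samples were at 95.7 CPM in double-positive-thymocyte-like cells, 21.1 CPM in T-like and 19.1 CPM in B-like cells. Without the Il31ra-led cluster the median of the other samples was 22.5 CPM. A late UMI was found in 1.34% to 2.08% of lymphoid cells in thymic Parse WT, in 0.0802% to 0.176% in Parse Mini and in 2.21% to 10.9% (median 4.61%) in the other samples, against 72% of the neutrophil-like cells of the other samples. The early genes were at 0.232 to 0.56 CPM, at 0 to 0.237 CPM and at 0.0709 to 5.77 CPM (median 0.67) in the same order.

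**Figure D5:**
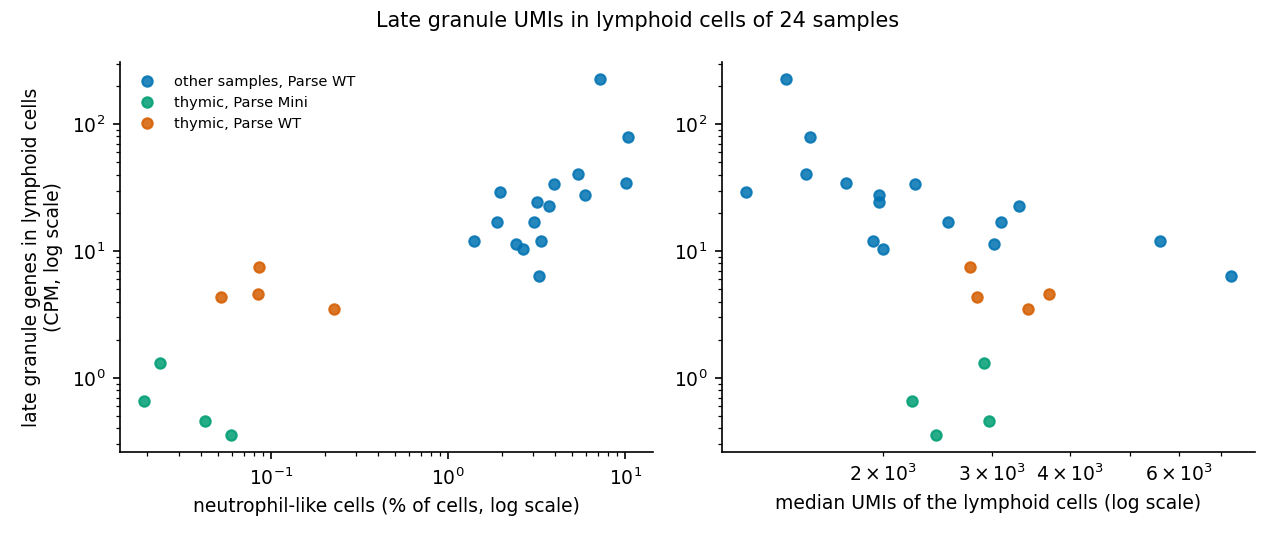
Summed level of the 5 late genes in lymphoid cells (CPM, log scale) of 24 samples, against the share of neutrophil-like cells in the sample (left, percent, log scale) and against the median UMIs of the lymphoid cells (right, log scale). Parse Mini samples lie at 0.357 to 1.3 CPM, thymic Parse WT samples at 3.49 to 7.49 CPM and the others at 6.37 to 226 CPM.

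Most lymphoid cells with a late UMI held a single one, 93.4% in thymic Parse WT, 92% in Parse Mini and 88% in the other samples, and 5, 2 and 39 cells held 5 or more. These few cells carried 11.8%, 50% and 11.7% of the late UMIs of lymphoid cells, in Parse Mini 23 of 46 UMIs. In B-like cells of the other samples the late genes were at 69.7 CPM in cells of 500 to 1000 UMIs, 41.3 CPM at 1000 to 2000, 22.2 CPM at 2000 to 5000 and 13.2 CPM above 5000 UMIs. The share of cells with a late UMI was 4.09%, 4.18%, 4.71% and 6.54% in these groups. The late UMIs per cell thus changed less between these groups (0.0471, 0.0483, 0.0584 and 0.0982) than the CPM did. The groups pool samples that differed in both depth and background, such as CVS_C_3 and CVS_S_6, so depth was not separated from sample. Between first-round wells of a sample, the ratio of the highest to the lowest late level in lymphoid cells was 1.02 to 1.75 in the other samples, with a median of 1.3, and 1.17 to 1.4 in thymic Parse WT. In T-1-B, the highest sample of Parse Mini, 17 late UMIs lay in 1 well and 2 in each of the other 2.

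In the other samples the mix of genes in lymphoid cells was not that of the neutrophil-like cells of the same sample. Per Ltf UMI, lymphoid cells of the other samples held a median of 1.48 S100a9 UMIs, against 0.39 in neutrophil-like cells. For S100a8 the values were 0.474 and 0.132, for Camp 0.24 and 0.0547, for Ngp 0.796 and 0.453 and for Lyz2 0.738 and 0.159. The ratio was the higher in lymphoid cells in all 16 samples for S100a9, S100a8, Camp and Lyz2, and in 15 for Ngp. In all 4 thymic samples of Parse WT Lyz2 per Ltf was again the higher in lymphoid cells, with medians of 0.81 and 0.204. There the medians for S100a9 were 1.04 and 0.825, for S100a8 0.386 and 0.271 and for Camp 0.233 and 0.172, with overlapping ranges, while Ngp was the lower in lymphoid cells in all 4 samples, with medians of 0.615 and 0.758. Why the mix differed was not tested.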

How the data were processed

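UMI counts per cell and gene were used as the authors deposited them, raw and without normalization. The authors had run the vendor's split-pipe pipeline on each sublibrary against mm10 and combined the sublibraries of a kit into a matrix. Neither the version of that pipeline nor its annotation release is given in the sources used here. The cell tables gave the sample, first-round well and barcode of each cell. The 4 Parse WT samples named tenxP_1 to tenxP_4 there were taken as thymic samples 1 to 4, after that name. Samples held 5405078 to 124106974 UMIs. Whether the counts include intronic reads could not be read from the files.

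Cells of 500 to 25000 UMIs with at most 15% mitochondrial UMIs were kept. Without the 10 genes, 2000 variable genes, 40 principal components, 15 neighbours and Leiden clustering at resolution 1 gave 29 clusters. They were named from fixed marker lists with at least 3 markers raised 2-fold. A name was withheld where Il2ra, Il23r, Ctsg or Stab2 was among the leading genes. It was withheld too where more leading genes came from other lists than from its own list and the 10 genes together. It was also withheld where a cluster was shallow for its samples with none of its markers leading. Myeloid and related cells were sub-clustered at 0.8. Lymphoid cells were those of T-, thymocyte-, B- and NK-like clusters. CPM used UMIs outside ribosomal RNA, pooled over cells. A count of 0 was given an upper level of 3 UMIs. Levels within a state by sample required 20 cells, and likeness required 100 UMIs per gene. Named genes were the 10 genes, genes of 5 lists (early granule, late granule, mature neutrophil, regulators, cycling), leading genes, and the 5 genes most like Ltf, Mpo, S100a8 and Lyz2.

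The 10 genes and the lists were chosen with earlier results of these data known. The sub-clustering resolution, the state names, the genes compared within the Il2ra-led cluster and the values without CVS_S_5 were chosen after the data were seen. No doublet caller was run. Clustering with naming was tested on simulated cells drawn from cluster profiles, without doublets, and thinning was tested on simulated counts. Clusters came from leidenalg 0.10.2, igraph 0.11.9 and scikit-learn 1.9.0, intervals from SciPy 1.17.1, and tables and plots from pandas 2.3.3, NumPy 2.4.6 and matplotlib 3.10.9 under Python 3.11.15. Gene positions came from the mm10 annotation and promoters from RefSeq (GRCm38.p6), where all 10 genes matched.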

Additional observations from a re-analysis of the deposited data

How the results depend on the processing

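Of 115 values recomputed under 25 alternatives, 85 moved by less than the spread between samples or the counting interval. With no limits on UMIs or mitochondrial UMIs, all 14 values did so. So did the neutrophil-like shares and the early and late levels of the Ctsg-Prtn3 state at other clustering resolutions, and the 7 values of the other samples without CVS_S_5. Single genes within states moved further without CVS_S_5, as given with them. With neutrophil-like cells taken by 3 or more markers, thymic Parse WT late genes were at 5448 CPM and early genes at 5.29 CPM. That rule took 2830 cells, of which 84.5% were in the cluster, and they made up 70% of it. Without cells holding a B or T marker UMI the thymic shares were 0.0294% (Parse WT) and 0.00584% (Parse Mini). The late genes were then at 19238 CPM and the early genes at 1079 CPM in thymic Parse WT, in 8 cells, and the late genes at 14732 CPM in the other samples. The thymic late level was 5234 CPM over all UMIs and 10514 CPM as a mean over cells. Leaving out each thymic sample of Parse WT gave late levels of 5534 to 8203 CPM and early levels of 7.84 to 104 CPM. Thinning gave co-detection of 53.1% (500 UMIs) and 66.7% (1000 UMIs). Without B or T marker UMIs the Ctsg-Prtn3 state held early genes at 1672 CPM and late genes at 72.9 CPM, an alternative chosen after seeing the data. The cause was not tested. No paired test was run, and no result came from a test. The replicate numbers of the labels are sublibraries, and cells of the same sample were set side by side. Thymic levels are limited by 36 and 7 cells, of which 28 and 6 held lymphoid UMIs.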
